A study of Mus musculus with 9 samples.

Results

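The heat shock chaperones described here are 10 listed genes, 6 stress-inducible genes (Hspa1a, Hspa1b, Dnajb1, Hsph1, Hsp90aa1 and Hspb1) and 4 constitutive genes (Hspa8, Hsp90ab1, Hspd1 and Hspe1). Each gene was read from the probe set that carried its symbol alone and had the highest mean over 9 arrays. By this rule 9 of the 10 genes were measured, among 22180 genes in all, and all 9 passed the filter on low values. Hsp90ab1, the constitutive cytosolic HSP90, had no probe set of its own in the annotation used and was not analysed here.

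The arrays came from hematopoietic stem cells (HSCs) sorted from bone marrow of mice aged 6 to 8 months, with 3 arrays per genotype, which the labels call biological replicates. In KO mice both Bcl11a alleles were floxed (Bcl11a fl/fl) and Mx1-Cre was present; in Het mice 1 allele was floxed (Bcl11a fl/wt) with Mx1-Cre; in WT mice both alleles were floxed (Bcl11a fl/fl) and Cre was absent. Mx1-Cre is driven by an interferon-responsive promoter, and every group received 5 doses of the interferon inducer poly(I:C), so KO and Het cells differ from WT cells in Cre as well as in Bcl11a. HSCs were lineage-negative, Sca-1-positive and Kit-positive, without CD48 and Flt3 and with CD150, and were taken as YFP+ or YFP-; which of these applied to which array was not given.

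Chaperones bind unfolded or partly folded proteins and help them to reach, keep or regain their shape. In the heat shock response, the transcription factor HSF1 is released when unfolded protein accumulates, forms trimers and binds heat shock elements, which are inverted repeats of a short GAA unit in the promoters of inducible genes. HSP70 proteins work with HSP40 partners, which deliver substrates and trigger ATP hydrolysis, and with HSP110 proteins, which exchange the nucleotide. Constitutive family members carry out the same chemistry in unstressed cells, and adult HSCs are known for low protein synthesis and for sensitivity to misfolded protein.

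Promoter windows from RefSeq (build GRCm38.p6, 250 bases before to 50 after a transcription start) were found for 7 of the 10 genes. They were searched on both strands for perfect pairs of inverted heat shock units, GAANNTTC or TTCNNGAA, and for runs of 3 units, in which a pair is followed, after 2 further bases, by another inverted unit (GAA after TTC, or TTC after GAA). Every run of 3 also contains overlapping pairs. A pair was present in windows of 6 of these 7 genes, where 15.1% of all 32851 windows held one, and a run of 3 in those of 3 genes, where 0.603% of all windows held one. The member figures count genes, of which some had 2 windows, whereas the percentages count windows. Nor are all these genes separate sequences. The windows of Hspa1a and Hspa1b are near-identical, and those of Hspd1 and Hspe1 overlap and share the same units. Dnajb1 had neither a pair nor a run of 3 in its windows. The TATAAA motif, in 13.6% of all windows, occurred in none of the members' windows.

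The windows of 4 genes are printed: the near-identical inducible pair Hspa1a (chr17:34972107-34972406, minus strand) and Hspa1b (chr17:34959189-34959488, minus strand), the inducible Hsph1 with a longer run (chr5:149636287-149636586, minus strand), and the constitutive Hspe1 with the longest run (chr1:55087898-55088197, plus strand). Capitals mark the heat shock units that matched.
Hspa1a: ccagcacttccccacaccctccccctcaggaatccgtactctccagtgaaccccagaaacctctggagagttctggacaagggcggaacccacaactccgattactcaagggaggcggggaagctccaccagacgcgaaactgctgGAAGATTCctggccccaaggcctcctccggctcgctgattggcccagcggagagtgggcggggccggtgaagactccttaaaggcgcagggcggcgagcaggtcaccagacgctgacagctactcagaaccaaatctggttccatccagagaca
Hspa1b: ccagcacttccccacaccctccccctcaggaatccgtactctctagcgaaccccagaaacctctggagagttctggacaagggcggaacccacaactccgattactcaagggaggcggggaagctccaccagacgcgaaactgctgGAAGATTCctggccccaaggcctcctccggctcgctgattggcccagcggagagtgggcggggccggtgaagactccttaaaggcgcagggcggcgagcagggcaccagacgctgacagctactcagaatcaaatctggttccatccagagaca
Hsph1: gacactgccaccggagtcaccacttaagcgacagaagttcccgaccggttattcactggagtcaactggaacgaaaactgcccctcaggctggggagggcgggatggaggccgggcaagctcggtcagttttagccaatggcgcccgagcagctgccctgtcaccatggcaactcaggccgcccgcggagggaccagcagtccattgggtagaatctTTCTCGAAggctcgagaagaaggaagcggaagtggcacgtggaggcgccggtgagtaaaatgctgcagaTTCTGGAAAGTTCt
Hspe1: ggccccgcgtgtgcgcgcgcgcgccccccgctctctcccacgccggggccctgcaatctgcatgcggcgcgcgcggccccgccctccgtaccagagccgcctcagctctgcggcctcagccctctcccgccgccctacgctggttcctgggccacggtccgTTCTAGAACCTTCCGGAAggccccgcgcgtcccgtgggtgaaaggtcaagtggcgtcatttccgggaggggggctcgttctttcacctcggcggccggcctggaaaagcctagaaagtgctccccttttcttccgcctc
The windows of Hspa1a and Hspa1b were identical at 296 of 300 bases (98.7%), and both held 1 pair of units from -104 to -97 relative to the start. In Hspe1 a run of 4 units covered 18 bases from -89 to -72. Hspe1 and Hspd1, the mitochondrial HSP10 and HSP60, are transcribed away from each other, and 285 bases of this window lie in a window of Hspd1, in which the same units run from -144 to -127. Hsph1 held a run of 3 units from 37 to 49 after the first of its RefSeq starts, and Hspb1 had pairs at -117 to -110 and -97 to -90. A match is a description of the letters, and binding was not measured.

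**Figure D1:**
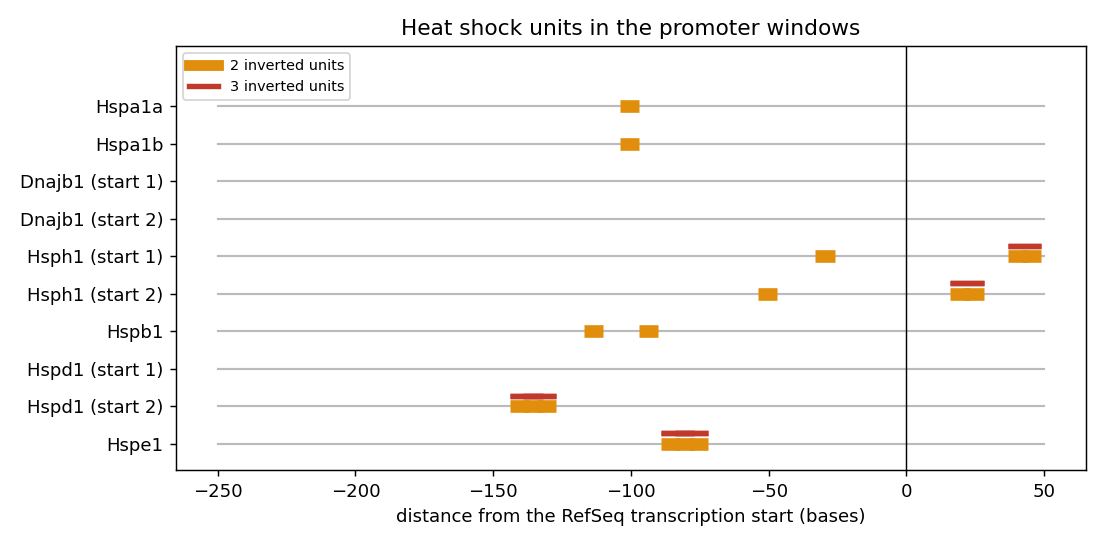
Positions of perfect heat shock units in the RefSeq promoter windows of the 7 genes with a window, from 250 bases before to 50 after each transcription start; the x axis is the distance from the start in bases. Orange marks pairs of inverted units and red marks runs of 3. The windows of Hspa1a and Hspa1b carry the same single pair, and the longest run lies in the window shared by Hspe1 and Hspd1.

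All values are log2 expression, made by the authors with RMA. The median of an array was 3.95 to 4.15, and arrays of the same genotype correlated at a Pearson's r of 0.919 to 0.968 across genes. Bcl11a, the deleted gene, read 7.82, 7.90 and 8.66 on the KO arrays, 8.34, 8.37 and 8.89 on the Het arrays and 8.73, 8.81 and 8.38 on the WT arrays (KO minus WT -0.51, limma adjusted p = 0.655). The array labelled KO replicate 3 lay inside the WT range, and groups are named here as labelled; where the probes lie relative to the deleted part was not given, so these values do not check the deletion. The 12 measured HSC markers averaged 7.63 to 8.27 on KO, 7.52 to 7.86 on Het and 6.05 to 7.27 on WT arrays. For KO minus WT, 12 of 12 of these markers were above 0 (45.4% of all genes) with a median of 1.15; 0 passed with limma (0.0421% of all genes) and 8 had an unadjusted p under 0.05 (8.21%). For Het minus WT, 12 of 12 were above 0 (48.3%) with a median of 0.87; 0 passed (0%) and 5 had an unadjusted p under 0.05 (4.89%). Flt3, which the gate excludes, read 3.55, 4.03 and 3.57 in KO, 3.93, 4.10 and 3.95 in Het and 4.99, 3.99 and 5.36 in WT cells, differing by -1.06 for KO minus WT and -0.79 for Het minus WT (limma adjusted p = 0.475 and 0.989). Cd48, also excluded by the gate, differed by -0.11 and 0.07. Y-linked genes read 2.22 to 3.32 on arrays with high Xist. By Xist, 1 of 3 KO, 1 of 3 Het and 2 of 3 WT arrays came from female mice.

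The inducible HSP70 genes spanned a wider range among the Het arrays alone than any difference between genotype means. Hspa1a and Hspa1b encode nearly the same protein, the stress-induced cytosolic HSP70, and are neighbours on the chromosome. Hspa1b read 5.33, 9.44 and 6.47 on KO replicates 1 to 3, 9.56, 10.1 and 4.63 on Het replicates 1 to 3, and 3.12, 4.07 and 5.71 on WT replicates 1 to 3. KO replicate 2 and Het replicates 1 and 2 were high and the other 6 arrays were low, with a gap between 9.44 and 6.47. The KO and WT arrays overlapped, as did the Het and WT arrays.

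Hspa1a read 2.95, 7.74 and 4.56 in KO, 9.32, 9.12 and 4.73 in Het and 4.56, 4.92 and 3.56 in WT cells. The same 3 arrays were high, and here too the groups overlapped. A probe set that the annotation assigns to both genes together, and that the rule did not use, read 3.87, 6.42 and 4.34 in KO, 7.69, 6.52 and 3.69 in Het and 4.91, 4.52 and 4.45 in WT cells. Its highest readings fell on the same 3 arrays. Because the 2 genes are near-identical, RNA of one may hybridise to probes of the other, and their signals may not be separate; KO replicate 1 for Hspa1a and WT replicate 1 for Hspa1b lay in the range in which absent Y-linked genes read.

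**Figure D2:**
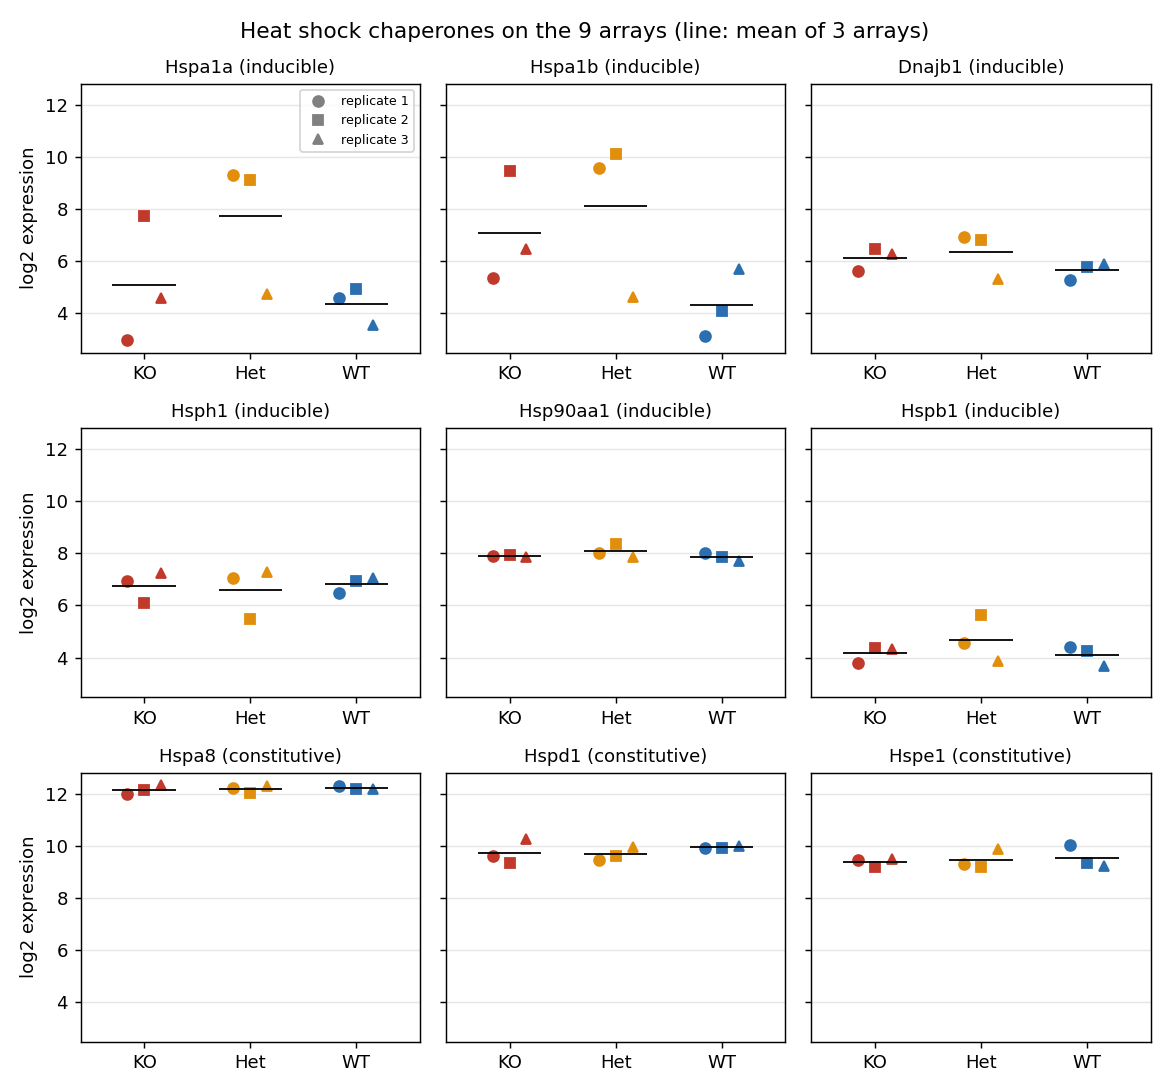
Log2 expression (y axis) of the 9 measured chaperone genes on each array, by genotype (KO, Het, WT); circles, squares and triangles are replicates 1, 2 and 3, and lines are means of 3 arrays. Hspa1a and Hspa1b separate KO replicate 2 and Het replicates 1 and 2 from the other 6 arrays, while Hspa8 stays between 11.98 and 12.34.

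The spread of this pair was wide for these arrays. Hspa1b ranged over 6.98 log2 units, a range reached by 6 of the 16636 genes tested (0.0361%, Hspa1b included), and Hspa1a over 6.37, reached by 14 genes (0.0842%). Within Het cells the SD of Hspa1b was 3.01, which 0.0361% of genes reached, and within KO cells that of Hspa1a was 2.44, which 0.0541% reached. Within WT cells their SDs were 1.31 and 0.705, which 2.01% and 13.9% of genes reached. No WT array held a reading of either gene as high as those of KO replicate 2 or Het replicates 1 and 2.

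KO cells were compared with WT cells first, the comparison that addresses the targeting of both alleles. Of the 9 members, 0 passed at an adjusted p under 0.05 with limma and 0 at an unadjusted p under 0.05, against 0.0421% and 8.21% of all genes tested; the arrays of KO and WT cells were separate for 0 members, against 13.8% of genes. In KO cells 5 of 9 members were higher, against 45.4% of genes, and 1 differed by more than 1 log2 unit, against 4.13%. Hspa1b averaged 7.08 ± 2.12 in KO and 4.30 ± 1.31 in WT cells (SD, n = 3 each), a log2 difference of 2.78 (SE 1.42, limma adjusted p = 0.638). Hspa1a averaged 5.08 ± 2.44 in KO and 4.35 ± 0.705 in WT cells, a difference of 0.74 (SE 1.32, limma adjusted p = 0.88). Single arrays moved both values: the difference was 1.60 for Hspa1b and -0.59 for Hspa1a without KO replicate 2, and 3.66 and 1.80 without KO replicate 1. Without the array labelled KO replicate 3 it was 3.09 for Hspa1b. In a bulk sample, more cells with the transcript and more transcript per cell cannot be told apart.

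Het cells, with 1 targeted allele, were compared with WT cells next. In Het cells 0 of the 9 members passed with limma, against 0% of all genes, and 2 (Hspa1a and Hspa1b) had an unadjusted p under 0.05, against 4.89%; the groups were separate for 0 members, against 8.41% of genes. In Het cells 5 of 9 members were higher, against 48.3% of genes, and 2 differed by more than 1 log2 unit, against 2.92%. Hspa1b averaged 8.10 ± 3.01 in Het and 4.30 ± 1.31 in WT cells, a difference of 3.80 that is 13.9-fold (SE 1.42, 95% interval 0.64 to 6.96, limma adjusted p = 0.967). Hspa1a averaged 7.72 ± 2.59 in Het and 4.35 ± 0.705 in WT cells, a difference of 3.38 that is 10.4-fold (SE 1.32, 95% interval 0.44 to 6.31, limma adjusted p = 0.97). Without Het replicate 3 these were 5.53 for Hspa1b and 4.87 for Hspa1a, and over all single left-out arrays they lay between 2.80 and 5.53 and between 2.58 and 4.87. WT replicate 1, which enters the Hspa1b fold, read in the range of absent genes. Het replicate 3 stood apart from the other Het arrays, with 4.63 for Hspa1b and 4.73 for Hspa1a, both inside the WT range.

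Sex was not balanced over these arrays and moved with the pair: the 3 high arrays were all male, while the other male arrays, KO replicate 1 and WT replicate 2, were low for both genes. Within male mice the Het minus WT difference was 5.76 for Hspa1b and 4.30 for Hspa1a (2 Het arrays and 1 WT array), and within female mice 0.22 and 0.67 (1 and 2). For KO minus WT it was 3.32 for Hspa1b and 0.43 for Hspa1a within male mice (2 KO arrays and 1 WT array), and 2.06 and 0.50 within female mice (1 and 2). With sex as a term in the fit, Het minus WT was 3.16 for Hspa1b and 2.70 for Hspa1a, KO minus WT was 2.14 and 0.06, and neither gene passed.

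The other inducible genes spanned less than 2 log2 units over the 9 arrays. Dnajb1, the HSP40 that partners inducible HSP70, read 5.61, 6.45 and 6.25 in KO, 6.91, 6.80 and 5.29 in Het and 5.27, 5.76 and 5.90 in WT cells. Its 3 highest readings were on the same arrays as those of the HSP70 pair. The difference was 0.46 for KO minus WT (limma adjusted p = 0.761) and 0.69 for Het minus WT (limma adjusted p = 0.992), with overlap in both.

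Hspb1, the small heat shock protein HSP25 of mice, read 3.80, 4.38 and 4.34 in KO, 4.57, 5.64 and 3.85 in Het and 4.42, 4.25 and 3.67 in WT cells. Only Het replicate 2 stood above the rest, and a second Hspb1 probe set read 4.22 there against 3.74 to 4.27 over all arrays. Hsp90aa1, the inducible cytosolic HSP90, read 7.89, 7.95 and 7.88 in KO, 8.00, 8.35 and 7.87 in Het and 8.02, 7.85 and 7.72 in WT cells. Its whole range of 0.63 was reached or exceeded by 92.3% of the genes tested.

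Hsph1, an HSP110 that exchanges nucleotide on HSP70, read 6.95, 6.10 and 7.23 in KO, 7.04, 5.48 and 7.28 in Het and 6.48, 6.95 and 7.04 in WT cells. It ran against the pair on 2 of the 3 high arrays, where it had its lowest readings, KO replicate 2 and Het replicate 2. Its differences were -0.06 for KO minus WT and -0.22 for Het minus WT (limma adjusted p = 0.976 and 0.992).

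The constitutive genes stayed within 1 log2 unit over all arrays. Hspa8, the constitutive HSP70 also known as HSC70, read 11.98, 12.13 and 12.34 in KO, 12.22, 12.04 and 12.29 in Het and 12.31, 12.20 and 12.17 in WT cells. Its range of 0.36 was reached or exceeded by 99.5% of the genes tested. The other probe sets of Hspa8 alone averaged 9.46, 10.70 and 12.12 in KO cells against 9.75, 10.76 and 12.20 in WT cells.

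Hspd1, the mitochondrial HSP60 that folds imported proteins in a closed barrel, read 9.60, 9.35 and 10.27 in KO, 9.45, 9.62 and 9.95 in Het and 9.90, 9.93 and 9.99 in WT cells. The WT arrays lay close together and the KO arrays on both sides of them. Hspe1, the HSP10 lid of that barrel, read 9.46, 9.18 and 9.50 in KO, 9.31, 9.20 and 9.86 in Het and 10.04, 9.34 and 9.21 in WT cells. KO minus WT was -0.08 for Hspa8, -0.20 for Hspd1 and -0.15 for Hspe1, with 95% intervals of -0.54 to 0.38, -0.80 to 0.40 and -0.79 to 0.49 (limma adjusted p from 0.839 to 0.92). Het minus WT was -0.04, -0.27 and -0.07 for these genes in the same order (limma adjusted p from 0.992 to 0.998).

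**Figure D3:**
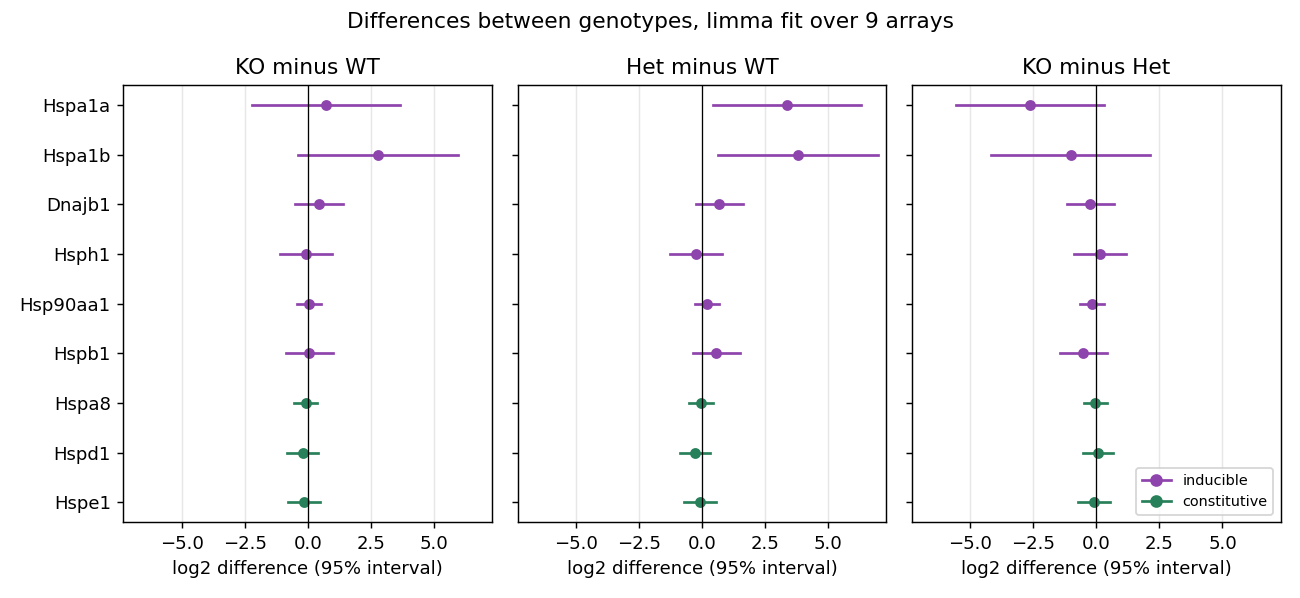
Log2 differences between genotypes (x axis; points) with 95% intervals (lines) for the 9 measured chaperones, from the limma fit over 9 arrays; purple genes are inducible and green genes constitutive. The intervals of Hspa1a and Hspa1b are the widest, and for Het minus WT they begin at 0.44 and 0.64, although neither gene passed after adjustment over all genes.

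KO cells were then compared with Het cells. With limma 0 of the 9 members passed and 0 had an unadjusted p under 0.05, against 0% and 4.56% of all genes; the arrays were separate for 0 members, against 9.82% of genes. In KO cells 2 of 9 members were higher, against 47% of genes, and 2 differed by more than 1 log2 unit, against 2.19%. Hspa1a differed by -2.64 (SE 1.32, 95% interval -5.58 to 0.30, limma adjusted p = 0.998) and Hspa1b by -1.02 (SE 1.42, 95% interval -4.18 to 2.14, limma adjusted p = 0.998). The other 7 members lay between -0.51 for Hspb1 and 0.16 for Hsph1. Each pair of these 3 comparisons shares the arrays of 1 genotype, so they are not independent of each other.

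Inducible and constitutive members were set side by side as changes, since levels of different probe sets are not comparable. The 6 inducible members had a median difference of 0.26 for KO minus WT and 0.63 for Het minus WT, where all genes tested had medians of -0.04 and -0.01; 5 of 6 were higher in each comparison and Hsph1 was lower. The 3 constitutive members had medians of -0.15 and -0.07, and 3 of 3 were lower in each. Several of these signs rest on differences near 0 and turned in at least 1 alternative. For KO minus WT these were Hsph1, Hsp90aa1, Hspb1, Hspa8 and Hspe1. For Het minus WT they were Hsph1, Hspa8, Hspe1 and the constitutive median. The sign of Hspa1a for KO minus WT, at 0.74, turned only when KO replicate 2 was left out (-0.59). The class names follow the listing and not the sequences. Hspd1 and Hspe1, listed as constitutive, share a promoter region that holds a run of 4 heat shock units. Both lists were chosen with earlier results in view and carry no test.

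On each array, values were also expressed relative to a gene's own mean over 9 arrays. The mean over inducible genes minus that over constitutive genes was -0.66, 1.06 and -0.31 on KO replicates 1 to 3, 1.51, 1.57 and -0.82 on Het replicates 1 to 3, and -1.17, -0.59 and -0.59 on WT replicates 1 to 3. The 3 positive arrays were those with high HSP70 genes. Without Hspa1a and Hspa1b, the inducible genes averaged -0.19, -0.04 and 0.17 in KO, 0.37, 0.31 and -0.18 in Het and -0.21, -0.05 and -0.17 in WT cells. Het replicates 1 and 2 were the highest of the 9, while KO replicate 2 lay among the rest. On Het replicate 2 these genes did not move together. Hspb1 was at its highest there, 5.64, where its second probe set read 4.22, and Hsph1 was at its lowest, 5.48. The constitutive genes lay between -0.26 and 0.27 on all arrays.

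**Figure D4:**
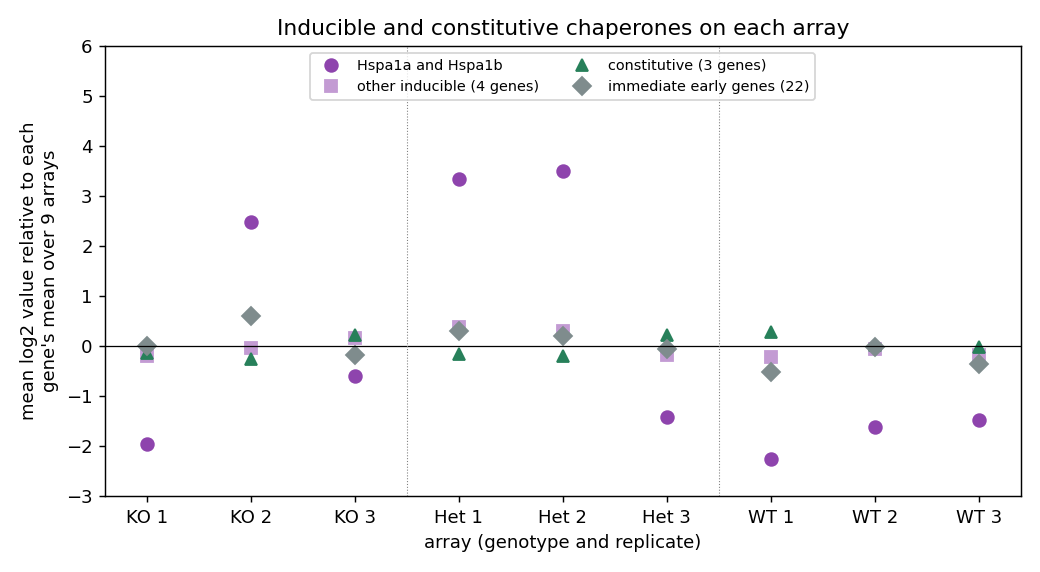
Mean log2 value relative to each gene's own mean over 9 arrays (y axis) on each array (x axis, genotype and replicate) for Hspa1a with Hspa1b, the other 4 inducible chaperones, the 3 constitutive chaperones and 22 immediate early genes. The HSP70 pair stands at 2.48 on KO replicate 2 and 3.34 on Het replicate 1, is higher still on Het replicate 2, and lies below 0 on the other 6 arrays.

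Immediate early genes, which cells induce within minutes of handling or other stimuli, were read on the same arrays. The mean over 22 such genes was 6.56 on KO replicate 2, 6.25 on Het replicate 1 and 6.15 on Het replicate 2, and 5.44 to 5.96 on the other 6 arrays, so the 3 arrays with high HSP70 genes were also the highest here. Granulocyte markers (8 genes) averaged 4.88, 4.62 and 6.24 on those 3 arrays. By genotype they averaged 4.52 to 4.88 on KO, 4.62 to 6.24 on Het and 5.22 to 6.31 on WT arrays. For KO minus WT, 1 of 8 was higher (45.4% of all genes), with a median of -0.485, and 0 passed (0.0421%). The furthest from 0 of the 8 was S100a8, a granulocyte calcium-binding protein, at -3.86 (limma adjusted p = 0.41). For Het minus WT, 5 of 8 were higher (48.3%), with a median of 0.13. Macrophage markers (6 genes) averaged 4.002, 4.13 and 3.88 on the 3 arrays and 3.88 to 4.93 over all 9. Erythroid markers (4 genes) averaged 4.30, 4.79 and 5.26 there and 4.30 to 5.88 over all 9, and were lowest on KO replicate 2 and Het replicate 1. That mean rests largely on 1 gene, Car1, which read 5.16 and 6.14 on those arrays and ranged over 4.33 log2 units. The other erythroid markers ranged over 0.60 to 1.93. B cell markers (6 genes) averaged 3.54, 3.81 and 3.97 there and 3.42 to 4.08 over all 9. The interquartile range of all values was 2.80, 2.53 and 2.39 there and 2.22 to 2.83 over all 9; with it as a term in the fit, Het minus WT was 3.91 for Hspa1b and 3.74 for Hspa1a. The part of handling or of other cells in the HSP70 readings was not tested.

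For the immediate early list, KO minus WT had 15 of 22 members above 0, against 45.4% of all genes, with a median of 0.13. With limma 0 passed (0.0421% of all genes). At an unadjusted p under 0.05, 4 of 22 were higher, where 8.21% of all genes had such a p in either direction. The members furthest from 0 were the AP-1 subunits Jund (1.87, adjusted p = 0.259) and Fosb (1.84), and on the lower side Atf3 (-0.48), a stress-induced repressor, and Egr3 (-0.25). Het minus WT had 14 of 22 above 0, against 48.3% of all genes, with a median of 0.34. Again 0 passed (0% of all genes). At an unadjusted p under 0.05, 5 of 22 were higher, where 4.89% of all genes had such a p in either direction. Jun was at 1.81 and Fosb at 1.78 and, lower, Myc at -0.54 and Ier5 at -0.35.

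The genes with the pattern most like Hspa1b and Hspa1a over the 9 arrays were found by the root-mean-square difference of log2 values, each gene relative to its own mean. Closest to Hspa1b were Scarna8, a small Cajal body RNA (1.22), Hspa1a (1.30), the histone gene H4f16 (1.44), Fosb (1.48) and Mir5103 (1.54), where Hspa1b itself had a root-mean-square of 2.44 about its mean. Closest to Hspa1a were Mir5103 (1.18), Hspa1b (1.30), Scarna8 (1.32), Fosb (1.52) and Mir202 (1.54). Scarna8 read 4.86, 6.10 and 5.06 in KO, 7.73, 6.52 and 3.91 in Het and 3.24, 2.77 and 2.94 in WT cells, and Fosb 5.15, 7.89 and 5.65 in KO, 6.68, 6.56 and 5.27 in Het and 3.96, 4.74 and 4.46 in WT cells. Each had its 3 highest readings on the arrays with high HSP70 genes, which largely follows from picking them by this pattern. Unlike the HSP70 pair, both genes read higher on every KO and Het array than on any WT array. Scarna8 differed by 3.07 for Het minus WT (SE 0.772, limma adjusted p = 0.731), and no gene named here passed.

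The wider chaperone network was covered by 8 lists with 116 genes, of which 107 were measured and 105 tested. With limma 0 passed in any of the 3 comparisons, against 0.0421% of all genes for KO minus WT and 0% for the others. At an unadjusted p under 0.05, 4 were higher and 0 lower for KO minus WT. For Het minus WT 0 were higher and 1 lower, and for KO minus Het 2 higher and 1 lower. Over all genes tested, 8.21%, 4.89% and 4.56% had such a p in these comparisons, so the lists' shares of 105 lay below the background. The member of these lists furthest from 0 was Htra2 for KO minus WT, at 1.2, and Dnajc18 for Het minus WT, at 1.08, where Hspa1b was at 2.78 and 3.80.

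The heat shock factor list had 3 tested members, with 3 of 3 below 0 for KO minus WT and for Het minus WT; Hsf1 had no probe set of its own. Hsf4, a heat shock factor best known from the lens, differed by -0.42 for KO minus WT and -0.40 for Het minus WT. Hsbp1, a small protein that binds heat shock factor trimers, differed by -0.23 for KO minus WT, and Hsf2, a partner of HSF1, by -0.40 for Het minus WT. Hsf5 lay under the filter.

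Relatives and exchange factors of HSP70 split 9 to 7, with 9 of 16 higher and a median of 0.02 for KO minus WT, and 9 of 16 and 0.03 for Het minus WT. In KO cells Hspa2, a testis-enriched HSP70, was at 0.83 and Hspa13, a microsomal HSP70 relative, at 0.59, while the BAG-domain genes Bag4 and Bag2 were at -0.71 and -0.31. In Het cells Bag6, which guards membrane proteins in the cytosol, was at 0.61 and Hspbap1 at 0.42, against -0.56 for Hspa4l, an HSP110, and -0.54 for Bag1.

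HSP40 co-chaperones had 11 of 22 higher with a median of 0.05 for KO minus WT, and 14 of 22 with a median of 0.10 for Het minus WT. The furthest in KO cells were Dnajc18 (0.98), Dnajb4 (0.79), Dnajc6, the neuronal auxilin that uncoats clathrin vesicles (-0.78), and Dnajb5 (-0.34). In Het cells they were Dnajc18 (1.08), Dnajc14 (0.96), Dnajc21, which acts in ribosome assembly (-0.68), and Dnajc6 (-0.57). HSP90 co-chaperones had 7 of 14 higher with a median of -0.05 in KO cells and 6 of 14 with -0.02 in Het cells. KO minus WT was 0.52 for Ahsa2, 0.29 for Fnip1, which slows the HSP90 ATPase, -0.39 for Ppid and -0.38 for Fkbp4, both peptidyl-prolyl isomerases. Het minus WT was 0.58 for Cdc37, which brings kinases to HSP90, 0.17 for Ahsa2, -0.61 for Chordc1 and -0.24 for Unc45a, a myosin chaperone.

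Small heat shock proteins other than Hspb1 had 3 of 7 higher in KO cells (median -0.25) and 2 of 7 in Het cells (median -0.09). KO minus WT was 0.12 for Hspb6, 0.03 for Hspb9, -0.69 for Hspb7 and -0.39 for Hspb8; Het minus WT was 0.36 for Cryab, 0.06 for Hspb6, -0.40 for Hspb8 and -0.35 for Hspb7. The list averaged 4.22 to 4.69 over the 9 arrays.

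The chaperonin TRiC, which folds actin and tubulin, and its partner prefoldin had 8 of 13 members higher in KO cells (median 0.05) and 4 of 13 in Het cells (median -0.12). The TRiC subunits Cct3 (0.39) and Cct2 (0.31) and, lower, the prefoldin subunit Pfdn1 (-0.63) and Cct6a (-0.42) were furthest in KO cells. In Het cells the prefoldin subunit Vbp1 was at 0.31, Cct2 at 0.11, Cct6a at -0.65 and Pfdn1 at -0.52.

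The list of endoplasmic reticulum chaperones also held stress transcription factors such as Atf4, and Herpud1, which are not chaperones. It had 9 of 18 members higher in KO cells (median 0.01) and 5 of 18 in Het cells (median -0.11). P4hb, the protein disulfide isomerase, was at 0.92 in KO and 0.60 in Het cells, and Herpud1, which serves disposal of misfolded proteins, at 0.52 and 0.59. Lower were Hyou1, the HSP110 of this compartment, at -0.41 in KO and -0.45 in Het cells, the stress transcription factor Atf4 at -0.44 in KO and the disulfide isomerase Pdia3 at -0.42 in Het cells.

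Of the mitochondrial chaperones and proteases, 12 of 12 were above 0 for KO minus WT, with a median of 0.33 where all genes had -0.04. With limma 0 passed (0.0421% of all genes) and 2 had an unadjusted p under 0.05 (8.21%). For Het minus WT, 7 of 12 were above 0 with a median of 0.08. Across all genes tested, 45.4% were higher in KO cells. Htra2, a protease of the intermembrane space, was at 1.2 (SE 0.503, limma adjusted p = 0.583) and Grpel2, a nucleotide exchange factor of mitochondrial HSP70, at 1.06 (SE 0.452, limma adjusted p = 0.592). In Het cells these were at 0.87 and 0.39, and the lower members furthest from 0 were Hscb, a co-chaperone of iron-sulfur cluster assembly, at -0.25 and Afg3l2, an inner membrane protease, at -0.12. The list averaged 6.83 to 6.95 on KO, 6.31 to 6.89 on Het and 6.24 to 6.68 on WT arrays. The 12 HSC markers averaged higher on each KO array and on each Het array than on any WT array. The part of these markers in the list's values was not tested. The mitochondrial members of the main list, Hspd1 and Hspe1, were at -0.20 and -0.15.

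**Figure D5:**
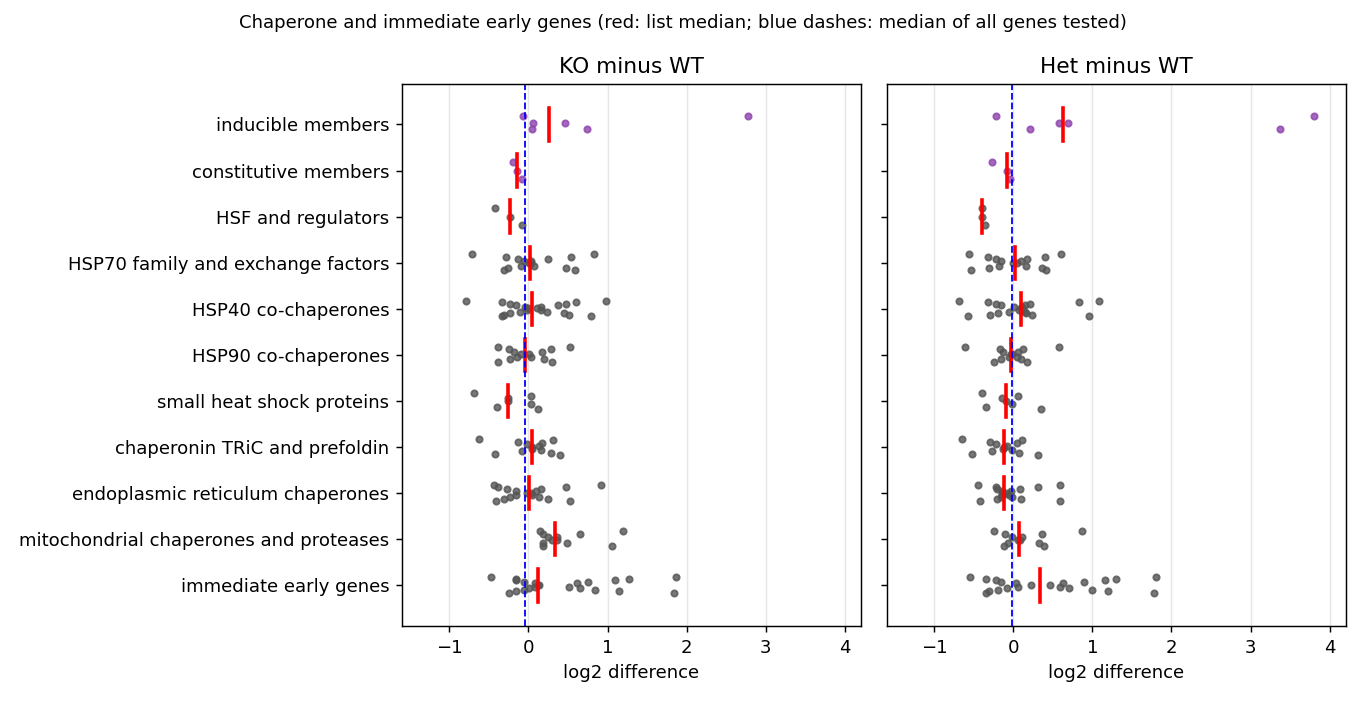
Log2 differences (x axis) of each tested gene (points) in the members' classes, the 8 wider chaperone lists and the immediate early genes (y axis), for KO minus WT and Het minus WT; red bars are list medians and the blue dashes the median of all genes tested. Most chaperone genes lie within 1 of 0, and Hspa1b at 2.78 and 3.80 lies furthest right.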

How the data were processed

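Hematopoietic stem cells in 9 samples were profiled on Affymetrix Mouse Gene 2.0 ST arrays after amplification of small RNA inputs, per the labels' protocols. For each probe set the authors deposited 1 log2 value per array. The submitters' processing notes name RMA as the method; its version, settings and genome build were not given in the sources used here. RMA compresses differences of dim transcripts, and the number of arrays limits the precision.

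Of 41345 probe sets, 23521 had 1 gene symbol, 1814 several and 16010 were not listed in the platform annotation. Each of 22180 genes was read from its probe set with the highest mean. Genes with a low mean (under 3.31, the 25th percentile) were left out, so that 16636 were tested. The fit used limma 3.58.1 (R 4.3.3) on group means of all 9 arrays, two-sided, with Benjamini-Hochberg adjustment over all genes tested and a threshold of 0.05; intervals are 95%. The fit was tested on simulated data. Sequences came from RefSeq tables of GRCm38.p6, which name no probe positions.

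The 10 members and the other gene lists were chosen with earlier results of these data known. Named were the members, Bcl11a, in each list up to 2 tested genes furthest from 0 in each direction for KO minus WT and Het minus WT, and the 5 genes most like Hspa1b and Hspa1a. Of the cell type and sex markers, Flt3, Cd48, S100a8, Car1 and Xist were named. Other filters, normalizations, probe set rules, covariates and left-out arrays were run as alternatives. Replicate numbers are shared between groups in the labels, which do not say whether samples were paired, and the main fit did not pair them.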

Additional observations from a re-analysis of the deposited data

How the results depend on the processing

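None of the 9 members passed the threshold for any of the 3 comparisons under any of 19 alternatives, in which 513 differences were recomputed. Each moved by less than the gene's SD within genotypes, but for many alternatives this was fixed beforehand. With 3 arrays per group, leaving out 1 array cannot move a difference by more than that SD, so this measure does not show stability there. The filters, the fit on only 2 groups and the replicate block cannot move a difference of group means. Signs turned in 4 alternatives for Hspb1 and for Hsph1 and in 3 for Hsp90aa1 (KO minus WT), and in 4 for Hspe1 and 2 for Hspa8 (Het minus WT). The constitutive median lay between -0.21 and -0.03 for KO minus WT and between -0.28 and 0.03 for Het minus WT. For Het minus WT, Hspa1b lay between 2.80 and 5.53 and Hspa1a between 2.58 and 4.87. For KO minus WT, Hspa1b lay between 1.60 and 3.66, and Hspa1a between -0.59 (without KO replicate 2) and 1.80; with sex as a term they were 2.14 and 0.06. The median over inducible members lay between 0.08 and 0.58 for KO minus WT and between 0.40 and 1.10 for Het minus WT. The count of all genes called for KO minus WT was 7, against 4 with a stricter filter at the median level, 3 after quantile normalization, 1 with only KO and WT arrays, 3 with sex as a term, 0 with a term for the interquartile range and 24 with array weights. Leaving out 1 array gave 0 to 15: 0 without KO or WT replicate 1, 1 without Het replicate 1 or WT replicate 2, 2 without KO replicate 2 or WT replicate 3, 15 without KO replicate 3, and 3 where Het replicate 3 was dropped. Same-numbered arrays did not deviate together in general, with r from -0.185 to 0.229, against -0.16 to 0.196 for differently numbered arrays. With the replicate number as a block the count was 0. The limma adjusted p of Hspa1b for KO minus WT was then 0.659, and no member passed. The cause of these moves was not tested.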

Other observations

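A probe set annotated to Hspa8 together with the small nucleolar RNA Snord14e, which the rule left out because it carries more than 1 symbol, read 8.00, 10.84 and 8.01 in KO, 7.48, 10.94 and 6.77 in Het and 6.94, 4.62 and 7.97 in WT cells. It was highest on KO replicate 2 and Het replicate 2, while the 4 probe sets annotated to Hspa8 alone stayed within 1 log2 unit. Small RNA genes are also among those with a pattern like the HSP70 pair: Mir5103 read 3.10, 4.14 and 3.07 in KO, 6.11, 7.16 and 2.90 in Het and 3.21, 3.62 and 3.57 in WT cells, and Mir202 read 3.28, 5.78 and 3.27 in KO, 6.70, 3.89 and 3.58 in Het and 3.82, 3.51 and 3.46 in WT cells.

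The histone gene H4f16, also near Hspa1b in pattern, read 5.54, 6.82 and 5.85 in KO, 6.41, 9.42 and 4.70 in Het and 4.03, 4.12 and 7.18 in WT cells. Unlike the HSP70 pair it had a high reading on a WT array.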
